A study of Mus musculus with 30 samples.

Results

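Expression of 6 potassium channel genes was followed in mouse macrophages across an agonist treatment and a time course of lipopolysaccharide (LPS). Kcnj2, Kcnk13, Kcnk6, Kcnn4 and Kcna3 encode pore-forming proteins, and Kcnab2 encodes an auxiliary subunit. They were picked by symbol, 6 of the 24761 gene symbols in the deposited table, and the transcript with the highest mean was kept for each. The list was drawn up with results of these same libraries in view. These are taken to be the low Kcnj2 with agonist before LPS and the low Kcnk13 with agonist at 2 h of LPS. Both of those differences are therefore given as descriptions, without a p-value, and so are the LPS changes of Kcnj2 with MPH and of Kcnk13 with MPH at 2 h, which are computed from the same libraries. The LPS changes of Kcnj2 with DMSO and of Kcnk13 with DMSO at 2 h share some libraries with these differences. Other results may have entered the choice too, so the remaining p-values and counts of members are also read as descriptions.

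The cells were macrophages grown with M-CSF from bone marrow of wild-type C57Bl/6 mice and used 6 days after plating. They were pretreated for 2 h with 1 µM metaproterenol hemisulfate (MPH), a β2 adrenergic agonist, or with the vehicle DMSO. LPS, a bacterial product that activates Toll-like receptors, was then given for 1 or 2 h at a concentration labelled as 100 ng/µL, and 0 h libraries had the pretreatment alone. There were 3 MPH cultures, named M2, M3 and M4, and 7 DMSO cultures, named D3 to D6, UKD, r1 and r2, each sampled once per time for 30 libraries in all. The labels do not say whether the cultures came from separate mice. The p-values rest on the spread between libraries and take the times of a culture as independent, although libraries of a culture deviated together. With culture as a random effect fewer genes passed in MPH against DMSO. At 0 h 25 of 10239 passed instead of 89, and at 2 h 2 instead of 89. MPH was compared with D3 to D6, whose names match in style, and the LPS response under DMSO was measured in all 7 cultures.

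Potassium channels set the resting membrane potential and with it the electrical drive for calcium entry, and potassium efflux is a known trigger of the NLRP3 inflammasome in macrophages. Inward rectifiers and tandem-pore-domain channels carry the resting conductance, whereas calcium-activated and voltage-gated channels open when the cell is stimulated. Auxiliary beta subunits bind voltage-gated channels and alter their surface expression and gating.

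All 12 macrophage markers reached 1 RPKM (mapped reads scaled by transcript length and library depth) in at least 3 libraries, and their summed level was 3879 to 7598 RPKM per library. Approximate depth ran from 5.38 to 92.1 M reads with a median of 41.3 M, and at 1 h the libraries D6, UKD and D4 had least, with 5.38, 8.49 and 9.71 M. Each MPH library was nearer to a DMSO library of its time than to another MPH library, and the 1 h library labelled M4 was so to a larger degree. Over expressed genes its log2 values correlated at 0.9944 with D5, its nearest DMSO library of that time, but at 0.9228 with its nearer MPH library, whereas the other 8 MPH libraries reached 0.9717 to 0.9821 with a DMSO library and 0.9365 to 0.9542 with an MPH library. Its channel values were close to those of D5 at 1 h, for example 16.3 RPKM in M4 against 15.1 RPKM in D5 for Kcnk13, and 2.56 RPKM in M4 against 2.18 RPKM in D5 for Kcna3. MPH results that rest on it are given with and without it.

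The promoters of 3 members are shown because their levels moved most, those of Kcnj2 and Kcnk13 between treatments and that of Kcna3 after LPS. The sequences are from RefSeq, build GRCm38.p6, and run from 250 bases before to 50 bases after the annotated start, whereas the expression values rest on mm9. Of the 6 members 5 had an entry, all except Kcnk6. The windows are chr11:111065914-111066213 for Kcnj2, chr12:99964249-99964548 for Kcnk13 and chr3:107035912-107036211 for Kcna3, each on the plus strand. Capitals mark matches on either strand to a loose form of the κB sites bound by NF-κB, in which GGG and CC stand 5 bases apart.
Kcnj2: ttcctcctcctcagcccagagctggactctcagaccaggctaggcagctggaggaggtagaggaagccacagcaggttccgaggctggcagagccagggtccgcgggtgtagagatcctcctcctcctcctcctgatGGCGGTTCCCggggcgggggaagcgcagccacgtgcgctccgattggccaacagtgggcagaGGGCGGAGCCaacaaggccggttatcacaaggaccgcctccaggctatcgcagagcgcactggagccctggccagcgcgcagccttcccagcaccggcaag
Kcnk13: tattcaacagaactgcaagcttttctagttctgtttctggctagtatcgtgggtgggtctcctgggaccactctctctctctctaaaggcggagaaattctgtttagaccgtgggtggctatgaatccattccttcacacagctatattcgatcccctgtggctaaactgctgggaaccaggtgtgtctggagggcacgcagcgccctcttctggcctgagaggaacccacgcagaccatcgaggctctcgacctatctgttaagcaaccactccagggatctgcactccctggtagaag
Kcna3: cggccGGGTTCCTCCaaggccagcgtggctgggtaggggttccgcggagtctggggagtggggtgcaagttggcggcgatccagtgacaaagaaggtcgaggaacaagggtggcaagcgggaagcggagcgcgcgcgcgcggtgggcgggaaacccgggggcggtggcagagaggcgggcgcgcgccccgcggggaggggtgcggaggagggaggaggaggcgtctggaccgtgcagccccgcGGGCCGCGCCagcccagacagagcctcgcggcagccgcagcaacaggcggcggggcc
The Kcnj2 window held 2 matches, which began at -113 and -51 from the start, and the Kcna3 window held 2, which began at -245 and -7. The Kcnk13 window held none. Of the windows not shown, that of Kcnn4 held 3, and the 3 windows of Kcnab2 held 2, 0 and 4. The pattern is common and occurred in 50.8% of 32851 promoter windows. Neither TGACGTCA, the full cAMP response element, nor TGACG, the shorter core it contains, occurred on either strand in the windows shown. Of all promoters 1.79% and 20.8% held them. The first Kcnab2 window held TGACG 2 times, and the Kcnn4 window and the other Kcnab2 windows held neither. GC content was 66.7% for Kcnj2, 52.7% for Kcnk13 and 75% for Kcna3, and the median of all promoters was 52.7%. These are matches of letters and carry no information on binding.

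Kcnn4 was the most abundant member and Kcnab2 the next, per transcript length, in both treatments at every time. At 0 h the 2 genes averaged 84.1 ± 15.7 and 42.6 ± 6.19 RPKM with MPH (SD, n = 3) and 73.0 ± 43.3 and 39.3 ± 6.86 RPKM with DMSO (SD, n = 7), and under DMSO their ranges overlapped. The order of the other members changed with treatment and time. At 0 h with MPH it was Kcnk6, Kcnk13, Kcna3 and Kcnj2, where the first pair did not differ beyond their spread. At 0 h with DMSO it was Kcnk13, Kcnk6, Kcnj2 and Kcna3, and only the neighbours Kcnk6 and Kcnj2 were apart over their whole range. At 1 h Kcnj2 and Kcnk13 followed Kcnab2 with overlapping ranges, in that order with MPH and in the opposite order with DMSO. At 2 h Kcna3 ranked next after Kcnab2 with MPH, above the ranges of Kcnk13, Kcnj2 and Kcnk6, whereas with DMSO it overlapped Kcnk13, Kcnk6 and Kcnj2.

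**Figure D1:**
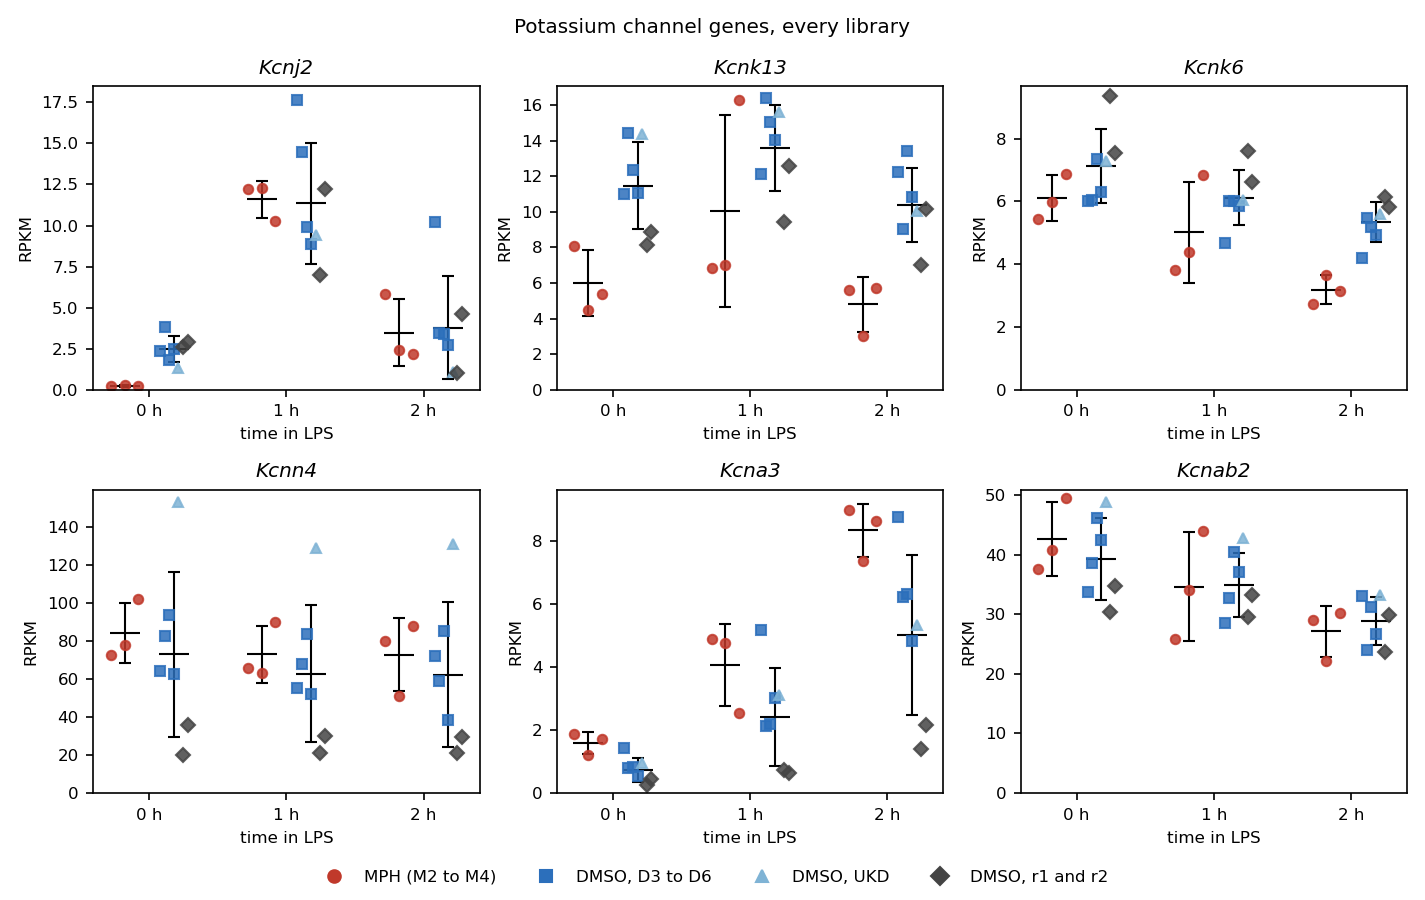
RPKM of each of the 6 genes in all 30 libraries, on a linear axis from 0, by hours in LPS, with MPH cultures left of DMSO cultures, 1 point per culture and lines for the mean and SD of each group (3 MPH and 7 DMSO cultures). At 0 h Kcnj2 lies between 0.195 and 0.263 RPKM with MPH, below all 7 DMSO cultures, and Kcna3 climbs with time in both treatments.

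Kcnj2 encodes the inward rectifier that holds the membrane near the potassium equilibrium potential. It was low with MPH before LPS, was high in both treatments at 1 h of LPS and lower again at 2 h. At 0 h its level was 0.195, 0.263 and 0.210 RPKM in MPH cultures M2, M3 and M4, against 2.37, 3.82, 1.78 and 2.47 RPKM in DMSO cultures D3 to D6. The DMSO cultures UKD, r1 and r2 held 1.31, 2.60 and 2.92 RPKM. All 3 MPH cultures thus lay below all 7 DMSO cultures, and the mean of D3 to D6 was 11.7 times that of MPH. Some 23 to 68 reads stood behind each MPH value by the depth estimate. The difference on the log2(RPKM + 0.5) scale was -2.07 (SE 0.36), and it was -3.03 with a pseudocount of 0.1 and -1.53 with a pseudocount of 1.

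At 1 h of LPS Kcnj2 no longer separated the treatments. Its level was 12.3, 12.3 and 10.3 RPKM in MPH cultures M2, M3 and M4, against 17.6, 14.5, 9.90 and 8.88 RPKM in DMSO cultures D3 to D6. The MPH values lay within the DMSO range, with a log2 difference of -0.08 (SE 0.36, adjusted p = 1) and an interval from -0.86 to 0.70 (95%). Without the library labelled M4 the difference was 0.000301.

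At 2 h of LPS Kcnj2 stood at 5.84, 2.42 and 2.17 RPKM in MPH cultures M2, M3 and M4, against 10.2, 3.47, 3.36 and 2.71 RPKM in DMSO cultures D3 to D6. The ranges overlapped, and M2 and D3 were the highest of their treatments. The DMSO cultures UKD, r1 and r2 spread widely, with 1.08, 1.01 and 4.62 RPKM. The log2 difference was -0.38 (SE 0.36, adjusted p = 1), with an interval from -1.16 to 0.39.

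Within cultures Kcnj2 was 63, 46.6 and 49.1 times its 0 h level at 1 h of LPS in M2, M3 and M4, and 2.69 to 7.43 times its 0 h level in the 7 DMSO cultures. The difference at 1 h was 4.06 on the log2 scale with MPH (SE 0.39), measured from the 0 h libraries for which the gene was listed. Without the library labelled M4 it was 4.14. Under DMSO the rise was 1.99 (SE 0.30, adjusted p = 6.69e-05). It is a description too, since the 0 h libraries of D3 to D6 entered the difference for which the gene was listed. From 1 to 2 h the level was lower in all 3 MPH and all 7 DMSO cultures. At 2 h it stood above 0 h in all 3 MPH cultures, with a log2 difference of 2.35 (SE 0.39) measured from the same 0 h libraries. Under DMSO 4 cultures were above and 3 below their 0 h level, and the log2 difference of 0.29 (SE 0.30) did not pass (adjusted p = 0.432).

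The LPS response of Kcnj2 differed between the treatments by an estimated 1.99 at 1 h (SE 0.52) and 1.68 at 2 h (SE 0.52), MPH minus DMSO on the log2 scale. These estimates contain the 0 h libraries in which the gene was known to be low with MPH, so they are descriptions.

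**Figure D2:**
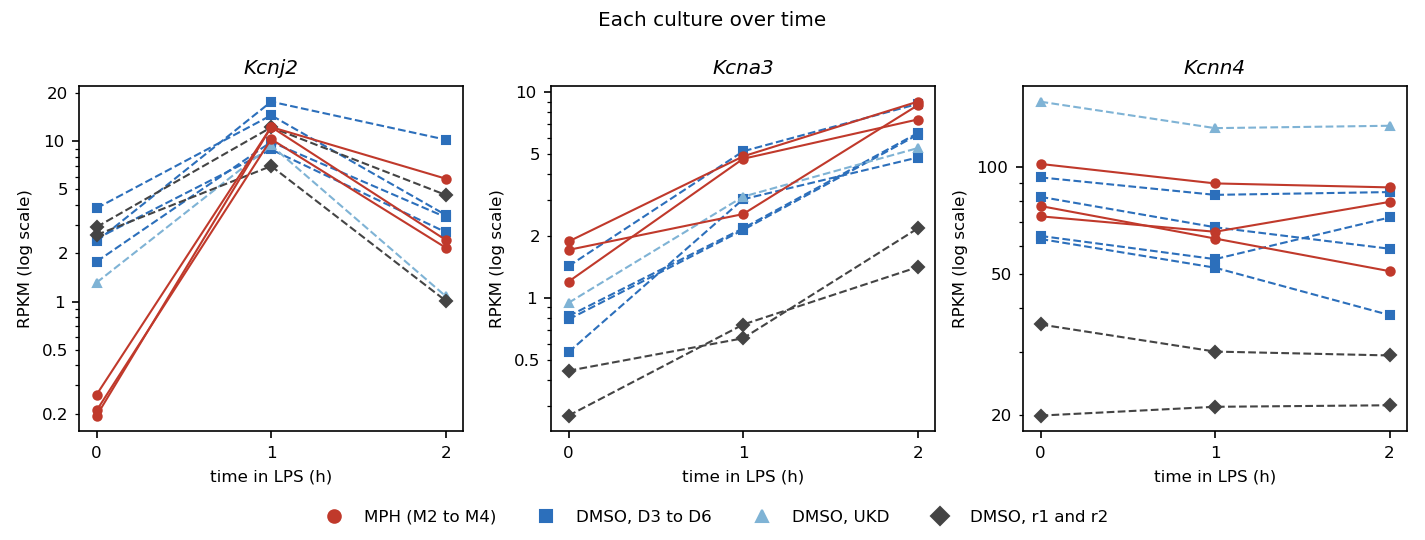
RPKM (log scale) against hours in LPS for Kcnj2, Kcna3 and Kcnn4, with 1 line per culture, solid for MPH and dashed for DMSO. The 3 MPH lines of Kcnj2 start lowest and meet the DMSO lines at 1 h, and for Kcna3 and Kcnn4 the cultures r1 and r2 run lowest at all times.

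Kcnk13 encodes a tandem-pore-domain background channel, the main resting potassium channel of microglia. Its level was lower with MPH than with DMSO at 0 and 2 h. At 2 h it was 5.63, 3.02 and 5.74 RPKM in MPH cultures M2, M3 and M4, against 12.2, 9.04, 13.5 and 10.8 RPKM in DMSO cultures D3 to D6. UKD, r1 and r2 held 10.1, 7.03 and 10.2 RPKM, so that all 3 MPH cultures lay below all 7 DMSO cultures. The mean of D3 to D6 was 2.37 times that of MPH, and the log2 difference was -1.20 (SE 0.27).

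At 0 h Kcnk13 stood at 8.11, 4.501 and 5.40 RPKM in MPH cultures M2, M3 and M4, against 11.0, 14.4, 12.4 and 11.1 RPKM in DMSO cultures D3 to D6. The groups did not overlap, although r1, at 8.15 RPKM, was close to M2. The log2 difference of -0.998 (SE 0.27, interval -1.57 to -0.42) did not pass (adjusted p = 0.114). At the same size it had adjusted p = 0.591 with culture as a random effect. It passed against all 7 DMSO cultures (adjusted p = 0.0118) and without the 1 h library labelled M4 (adjusted p = 0.0174), which enters the fit through the shared spread.

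At 1 h Kcnk13 was at 6.83, 7.03 and 16.3 RPKM in MPH cultures M2, M3 and M4, against 12.1, 16.4, 15.1 and 14.03 RPKM in DMSO cultures D3 to D6. M2 and M3 lay below these DMSO cultures and the library labelled M4 lay among them. The log2 difference was -0.61 (SE 0.27, adjusted p = 1) with that library and -0.998 (SE 0.24, adjusted p = 0.0489) without it.

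The LPS response of Kcnk13 was small. Under DMSO the level at 1 h was above 0 h in 7 of 7 cultures, by 0.25 on the log2 scale (SE 0.11, adjusted p = 0.119). This rise passed with a culture block (adjusted p = 0.0303), where 5459 of 10212 genes passed, 889 of them as higher. At 2 h the difference was -0.13 (SE 0.11, adjusted p = 0.316) and turned to 0.09 after median-of-ratios scaling. Under MPH the log2 difference of 0.62 at 1 h (SE 0.29, adjusted p = 0.474) did not pass and was 0.23 without the library labelled M4, and at 2 h the difference was -0.31 (SE 0.29). The 3 transcript lines of the gene differed in log2 value by at most 0.02.

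Kcnk6 encodes the tandem-pore-domain channel that carries potassium efflux after extracellular ATP in mouse macrophages. Its level fell over 2 h of LPS in every culture. With MPH it was 5.44, 5.99 and 6.88 RPKM at 0 h in M2, M3 and M4, 3.82, 4.39 and 6.85 RPKM at 1 h, and 2.74, 3.66 and 3.14 RPKM at 2 h. With DMSO the 7 cultures had a range of 6.02 to 9.35 RPKM at 0 h, 4.68 to 7.59 RPKM at 1 h and 4.204 to 6.13 RPKM at 2 h. At 2 h the 3 MPH cultures lay below all 7 DMSO cultures, whereas at 0 and 1 h the treatments overlapped.

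The fall of Kcnk6 at 2 h was -0.84 on the log2 scale with MPH (SE 0.17, adjusted p = 0.00237) and -0.38 with DMSO (SE 0.08, adjusted p = 0.000465), lower in 3 of 3 and 7 of 7 cultures. The median of all genes shifted by -0.23 with MPH and -0.25 with DMSO in the same comparisons. After median-of-ratios scaling, which removes most of that shift, the DMSO difference of Kcnk6 was -0.17 and no longer passed (adjusted p = 0.107). In D3 to D6 alone it was -0.34 (adjusted p = 0.0638). At 1 h the differences of -0.29 with MPH (adjusted p = 0.730) and -0.20 with DMSO (adjusted p = 0.0765) did not pass. The DMSO one passed with a culture block (adjusted p = 0.00412), where 4570 of 10212 genes passed as lower. The MPH one was -0.52 without the library labelled M4 (adjusted p = 0.1).

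The MPH minus DMSO log2 difference of Kcnk6 was -0.07 at 0 h (SE 0.16, adjusted p = 1), -0.19 at 1 h (SE 0.16, adjusted p = 1) and -0.57 at 2 h (SE 0.16, adjusted p = 0.122). The 2 h value rests on 2.74, 3.66 and 3.14 RPKM in M2, M3 and M4, against 4.204, 5.49, 5.20 and 4.94 RPKM in D3 to D6, and the groups did not overlap. With culture as a random effect it had adjusted p = 0.361. Without the 1 h library labelled M4 the 1 h value was -0.41 (adjusted p = 0.311) and the 2 h value passed (adjusted p = 0.0297), as it did against all 7 DMSO cultures (-0.56, adjusted p = 0.0142). The LPS responses differed by an estimated -0.50 at 2 h (SE 0.23, interval -0.99 to -0.01), which did not pass (adjusted p = 1).

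Kcnn4 encodes the intermediate-conductance channel opened by intracellular calcium. Its level varied more among DMSO cultures than between treatments or times. At 0 h it was 72.6, 77.6 and 102 RPKM in MPH cultures M2, M3 and M4, against 63.9, 82.4, 93.5 and 62.7 RPKM in DMSO cultures D3 to D6. UKD held 152.8 RPKM, whereas r1 and r2 held 19.9 and 36.0 RPKM. The same held at 2 h, with 79.7, 50.9 and 87.6 RPKM in M2, M3 and M4, against 72.1, 58.8, 84.98 and 38.2 RPKM in D3 to D6, and with 130.7 RPKM in UKD and 21.3 and 29.4 RPKM in r1 and r2. UKD was the highest and r1 and r2 the lowest of the 10 cultures at every time.

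No treatment difference of Kcnn4 passed. The MPH minus DMSO log2 difference was 0.16 at 0 h (interval -0.40 to 0.71), 0.18 at 1 h (interval -0.37 to 0.73) and 0.22 at 2 h (interval -0.34 to 0.77), each with adjusted p = 1. Without the library labelled M4 the 1 h value was 0.02. After 2 h of LPS the log2 difference was -0.23 with MPH (SE 0.28, adjusted p = 0.620) and -0.22 with DMSO (SE 0.17, adjusted p = 0.280), close to the shift of the median gene. The DMSO difference passed with a culture block (adjusted p = 0.0201), where 6335 of 10212 genes passed as lower. It was 0.00128 after median-of-ratios scaling.

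Kcna3 encodes a voltage-gated channel known from T cells and activated microglia. Its level was higher at each successive time of LPS in all 10 cultures. With MPH the level was 1.88, 1.20 and 1.72 RPKM at 0 h in M2, M3 and M4, 4.89, 4.76 and 2.56 RPKM at 1 h, and 9.01, 7.38 and 8.65 RPKM at 2 h. With DMSO the cultures D3 to D6 held 1.43, 0.788, 0.818 and 0.546 RPKM at 0 h, 5.17, 2.15, 2.18 and 3.02 RPKM at 1 h, and 8.79, 6.23, 6.34 and 4.82 RPKM at 2 h. The 2 h and 0 h ranges of these libraries did not overlap in either treatment.

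The cultures r1 and r2 had the lowest Kcna3 at every time, with 1.41 and 2.18 RPKM at 2 h and 0.268 and 0.443 RPKM at 0 h. Their levels at 2 h were 5.27 and 4.91 times those at 0 h, beside 4.78, 6.13 and 5.05 times in M2, M3 and M4. The LPS rise at 2 h was 2.08 on the log2 scale with MPH (SE 0.29, adjusted p = 7.89e-05) and 2.03 with DMSO (SE 0.20, adjusted p = 1.06e-07). At 1 h it was 1.09 with MPH (SE 0.29, adjusted p = 0.0527) and 1.09 with DMSO (SE 0.20, adjusted p = 0.000504). The MPH value was 1.36 without the library labelled M4 (adjusted p = 0.0176). With a culture block the MPH value also passed (adjusted p = 0.0208), where 328 of 9880 genes passed as higher.

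Between treatments the Kcna3 ranges overlapped at each time. Its MPH minus DMSO log2 difference was 0.61 at 0 h (SE 0.28, adjusted p = 0.670), 0.36 at 1 h (SE 0.28, adjusted p = 1) and 0.35 at 2 h (SE 0.28, adjusted p = 0.915), and the 1 h value was 0.62 without the library labelled M4. The LPS responses differed by -0.25 at 1 h (interval -1.08 to 0.58) and -0.26 at 2 h (interval -1.09 to 0.57), each with adjusted p = 1. T cell genes were low in these cultures. The highest values of Cd3e, Cd3d and Cd3g in any library were 0.128, 0.140 and 0.182 RPKM. Those of Cd4, Lck and Cd2 were higher, at 1.10, 0.428 and 0.422 RPKM, and those of Cd8a, Ncr1 and Klrb1c were 0.0600, 0.128 and 0.0709 RPKM. For Cd3e, Cd3d, Cd3g, Cd8a and Ncr1 these mark the level of 1 read in D6 at 1 h, the library of least depth, and are upper limits. The summed level of the 9 T and NK cell markers found was 0.421 to 0.868 RPKM with MPH and 0.289 to 2.39 RPKM with DMSO. D6 held 1.14 to 2.39 RPKM, where the highest sum is that of 1 h and contains those 1-read levels. The part of T and NK cells in the Kcna3 level was not tested.

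Neutrophil markers were low in r1 and r2, as Kcnn4 and Kcna3 were, and also in D6. Of the 7 markers 4 reached 1 RPKM in at least 3 libraries, and S100a8 and S100a9 gave most of the sum. The summed level was 34.7 to 74.5 RPKM with MPH, 24.4 to 75.5 RPKM in UKD and D3 to D5, 4.38 to 14.2 RPKM in D6, and 4.66 to 20.0 RPKM in r1 and r2. The defining markers Ly6g and Cxcr2 stayed at or below 0.356 and 0.203 RPKM. Their part in the channel levels was not tested, and fewer cells of a type cannot be told apart from less RNA per cell in bulk libraries.

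Kcnab2 encodes a cytoplasmic beta subunit of voltage-gated channels. It was lower at 2 h of LPS than at 0 h in all 10 cultures. With MPH it was 37.6, 40.8 and 49.6 RPKM at 0 h in M2, M3 and M4, 25.8, 34.0 and 44.0 RPKM at 1 h, and 29.1, 22.2 and 30.1 RPKM at 2 h. With DMSO the cultures ran from 30.4 to 48.8 RPKM at 0 h, from 28.5 to 42.8 RPKM at 1 h and from 23.7 to 33.3 RPKM at 2 h. The 2 h and 0 h values did not overlap with MPH and overlapped with DMSO.

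The fall of Kcnab2 at 2 h was -0.64 on the log2 scale with MPH (SE 0.20, adjusted p = 0.0271) and -0.43 with DMSO (SE 0.10, adjusted p = 0.00103). After median-of-ratios scaling the values were -0.44 with MPH (adjusted p = 0.193) and -0.21 with DMSO (adjusted p = 0.123), and neither passed. At 1 h the differences of -0.32 with MPH (adjusted p = 0.745) and -0.16 with DMSO (adjusted p = 0.249) did not pass. The MPH one was -0.51 without the library labelled M4. The MPH minus DMSO log2 difference of Kcnab2 was 0.08 at 0 h (interval -0.31 to 0.48), -0.02 at 1 h (interval -0.42 to 0.37) and -0.08 at 2 h (interval -0.48 to 0.31), each with adjusted p = 1. A predicted gene on the same strand, Gm16334, overlaps exons of Kcnab2, so the source of reads there is uncertain.

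**Figure D3:**
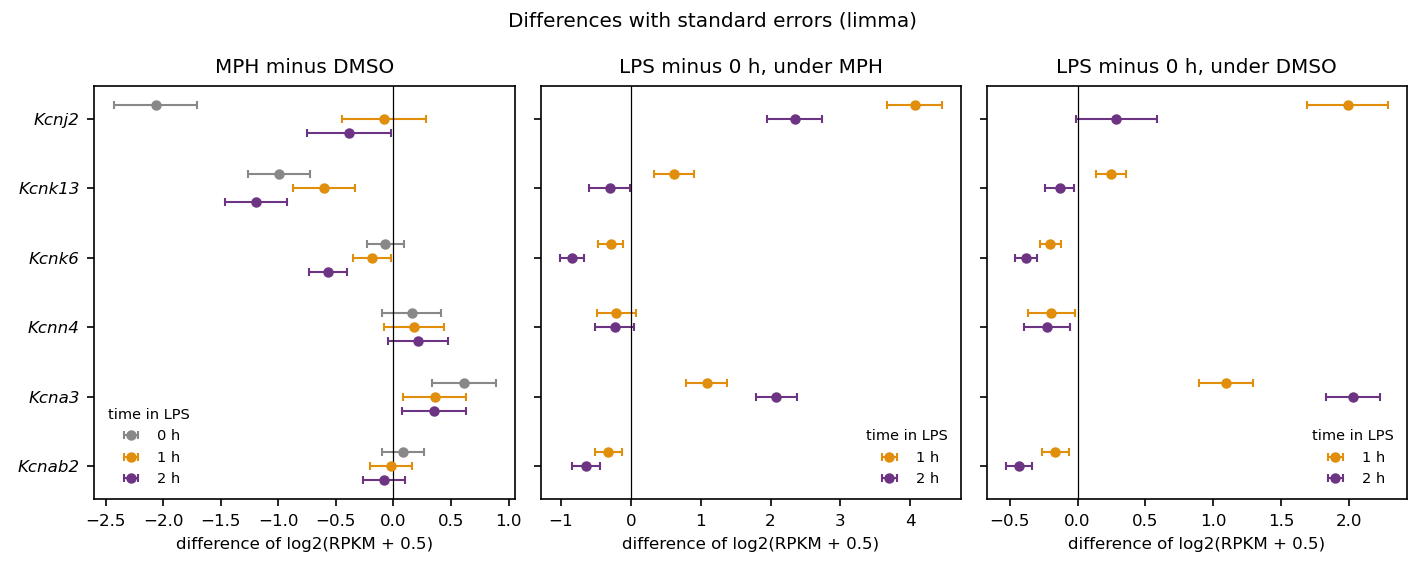
Log2 differences with SE on the log2(RPKM + 0.5) scale for the 6 genes, in panels for MPH minus DMSO, LPS under MPH and LPS under DMSO. Kcnj2 at 0 h (-2.07) and Kcnk13 at 2 h (-1.20) are the lowest MPH minus DMSO values, and the Kcnj2 and Kcna3 rises stand out after LPS.

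Of the 6 members 2 passed as higher at 1 h of LPS under DMSO, Kcnj2 and Kcna3, where 5.24% of all genes tested rose and 15.0% fell. At 2 h under DMSO 1 rose (Kcna3) and 2 fell (Kcnk6 and Kcnab2), where 10.5% of all genes rose and 43.6% fell, so that 2 falls among 6 genes are near the background. Under MPH 1 rose at 1 h (Kcnj2), where 1.89% of all genes rose. At 2 h under MPH 2 rose (Kcnj2 and Kcna3) and 2 fell (Kcnk6 and Kcnab2), where 5.97% of all genes rose and 14.7% fell. The MPH calls of Kcnj2 are measured from the 0 h libraries for which it was listed, so nothing is read from them. Its call under DMSO uses the 0 h libraries of D3 to D6, which entered the same difference, and is a description. The MPH minus DMSO contrasts share their libraries with the LPS responses, so their calls are set side by side only. Median-of-ratios scaling moved the balance of all genes under DMSO to 665 higher and 537 lower at 1 h, against 535 and 1536 unscaled, and to 1699 higher and 2142 lower at 2 h, against 1075 and 4454 unscaled. Under MPH it gave 215 higher and 76 lower at 1 h, against 194 and 121 unscaled, and 789 higher and 646 lower at 2 h, against 611 and 1510 unscaled.

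Of the 6 members 1 passed in MPH against DMSO at 0 h, where 0.869% of all genes did, and 1 passed at 2 h, where 0.869% did. They are Kcnj2 and Kcnk13, for which they were listed, so nothing is read from either count. At 1 h limma called 0 genes of any kind (0% of 10239, with 327 at an unadjusted p below 0.05) and 0 members, of which Kcnk13 had an unadjusted p below 0.05. Without the 1 h library labelled M4 it called 137 of 10231 genes, with 983 at an unadjusted p below 0.05, and 1 member, Kcnk13. The difference between LPS responses was called for 0 genes at 1 h (0%, with 83 at an unadjusted p below 0.05) and for 11 genes at 2 h (0.107%), with 0 members at either time. Kcnk6 had an unadjusted p below 0.05 at 2 h. So did Kcnj2 at 1 h and at 2 h, measured from the 0 h libraries for which it was listed, so nothing is read from it. That fit does not pair the times of a culture. With a culture block the response difference was called for 20 of 10239 genes at 1 h and 146 at 2 h, again with 0 members. Without the 1 h library labelled M4 and with no block it was called for 1 gene at 1 h and 15 at 2 h. All 3 MPH cultures lay below D3 to D6 for Kcnj2 and Kcnk13 at 0 h and for Kcnk13 and Kcnk6 at 2 h, where 3.98% and 5.22% of all genes did so. Kcnj2 at 0 h and Kcnk13 at 2 h were listed for these values, so nothing is read from these counts either.

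A list of 104 potassium channel genes, pore-forming and auxiliary, put the members in context. Only 11 of the 104 reached 1 RPKM in at least 3 libraries, the 6 members and Tmem38b, Tmem175, Tmem38a, Kcne3 and Kcnk12, while the other 93 had medians below 0.1 RPKM. Tmem38a and Tmem38b encode cation channels of the sarcoplasmic and endoplasmic reticulum, Tmem175 a lysosomal potassium channel, Kcne3 an auxiliary subunit and Kcnk12 a relative of Kcnk13. At 2 h of LPS under DMSO 1 of the 11 rose and 5 fell, with a median log2 difference of -0.25 beside -0.25 for all genes, whereas after median-of-ratios scaling 2 of 9 tested rose (Kcna3 and Tmem38b) and 0 fell. The falls outside the members were Kcne3 (-0.90), Tmem38a (-0.38) and Tmem175 (-0.35, adjusted p = 0.0343). Tmem175 no longer passed after scaling (adjusted p = 0.447), and the others were then below the filter. Kcne3 and Tmem38a reached 1 RPKM in 5 and 7 of 30 libraries, and both averaged highest at 0 h. With DMSO Kcne3 averaged 1.007 RPKM at 0 h and 0.317 RPKM at 2 h, and Tmem38a 0.837 and 0.527 RPKM. For such genes the filter favours a fall from 0 h, so their falls are descriptions, without a p-value. Kcne3 also fell at 1 h under DMSO (-0.53) and at 2 h under MPH (-0.68), with the same limit. At 2 h under MPH 2 of the 11 rose and 3 fell. Between treatments Kcnj2 at 0 h and Kcnk13 at 2 h were the list's calls, where 0.869% of all genes passed each time. Both genes were listed for these differences, so nothing is read from the calls. Each time 10 of the 11 genes did not pass.

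**Figure D4:**
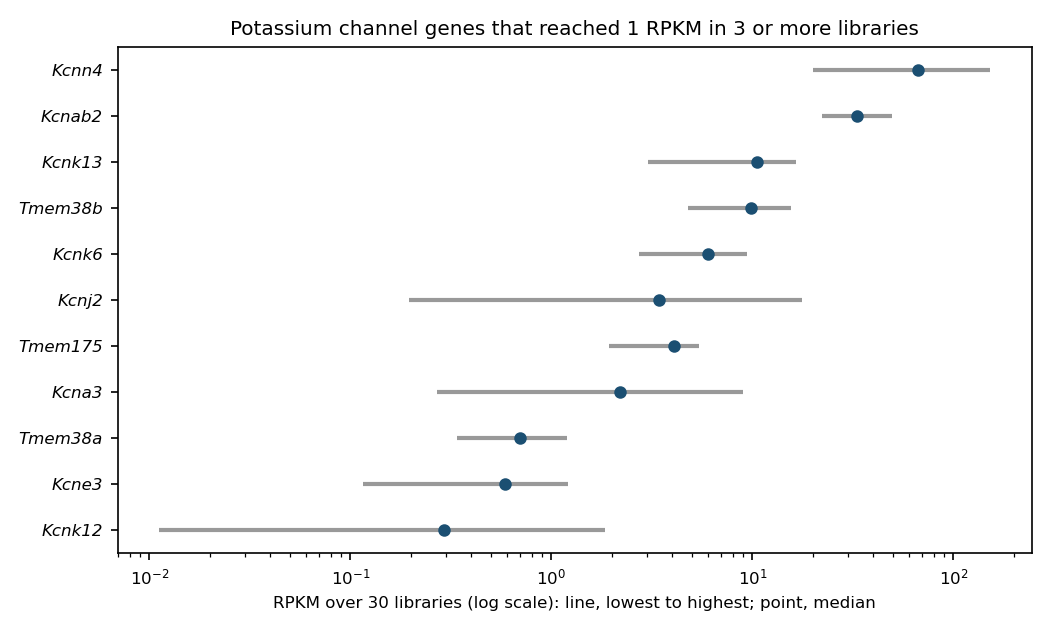
Levels in RPKM (log scale) over all 30 libraries of the 11 potassium channel genes that reached 1 RPKM in at least 3 of them, with a line from the lowest to the highest library and a point at the median. Kcnn4 and Kcnab2 lie highest, and Kcne3, Kcnk12 and Tmem38a lie around or below 1 RPKM.

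Genes that work with potassium flux were described from a second list of 38, of which 32 could be tested. It holds pumps, cotransporters, ATP-gated and volume-regulated channels, store-operated calcium entry and the NLRP3 inflammasome. None of the 32 passed between MPH and DMSO at any time in limma, and 4, 2 and 2 had an unadjusted p below 0.05 at 0, 1 and 2 h. At 2 h of LPS 4 rose and 2 fell under MPH, and 9 rose and 10 fell under DMSO, with medians of -0.11 under MPH and -0.18 under DMSO beside -0.23 and -0.25 for all genes. After median-of-ratios scaling 5 rose and 1 fell under MPH, and 10 rose and 3 fell under DMSO. Nlrp3, the inflammasome sensor, rose by 4.34 on the log2 scale with MPH (adjusted p = 1.88e-08) and by 4.41 with DMSO (adjusted p = 8.17e-13). Orai2, a subunit of store-operated calcium channels, rose by 2.12 with MPH and 1.97 with DMSO. Clic4, a chloride intracellular channel protein gene, rose by 1.93 with MPH and 1.93 with DMSO. P2rx7, which encodes the ATP receptor that opens a cation pore and precedes potassium efflux, fell by 1.09 with MPH (adjusted p = 0.00437) and by 1.19 with DMSO (adjusted p = 5.91e-07).

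The genes whose profile over the 30 libraries was most like that of each member were found by Pearson correlation on log2(RPKM + 0.5) among 10355 genes. The libraries share cultures, depth and LPS times, so the coefficients are descriptions. For Kcnj2 they were Klf6 (0.870), Egr1 (0.845) and Rasgef1b, and for Kcna3 Spata13 (0.936), Cav1 (0.927) and Slc7a11 (0.919). Kcnk13 was closest to Slain2 (0.879), Aopep (0.790) and Adap1 (0.788), and Kcnk6 to Dhrs3, Hip1 and Vps33a (0.916). Kcnn4 was closest to Uchl1 (0.953), Tmem219 and Inf2 (0.935), and Kcnab2 to Dagla (0.945), Steap3 (0.944) and Agfg2 (0.926). Among the members themselves the coefficients ran from -0.851 for Kcnk6 with Kcna3 to 0.571 for Kcnn4 with Kcnab2.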

How the data were processed

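Per the labels' protocols, total RNA was sequenced after TruSeq library preparation. FastQC, cutadapt, HISAT2, SAMtools and the build mm9 are named, per the submitters' processing notes, while the sources used here give no counting program, annotation or strand setting. In the deposited table, values are RPKM, computed by the authors for 44401 transcript lines with 24761 gene symbols. Its lowest values are never 0 and mark the level of 1 read, so low levels are upper limits. Depth was estimated from these steps over 6323 low transcripts, with lengths from GENCODE M21.

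For each symbol the line with the highest mean was kept. Genes that reached 1 RPKM in 3 or more libraries of a fit were tested as log2(RPKM + 0.5) with limma-trend (limma 3.58.1, R 4.3.3), with p-values adjusted by the Benjamini-Hochberg method over all genes tested and a threshold of 0.05, which is meant wherever a value is said to pass. Every adjusted p is from limma. A fit of 21 libraries of M2 to M4 and D3 to D6 (10239 genes, 15 residual degrees of freedom) gave MPH against DMSO, LPS under MPH and how the LPS responses differed. Another fit took the 21 DMSO libraries with a covariate for the culture name (D, UKD or r) (10212 genes, 16 residual degrees of freedom) and gave LPS under DMSO. Each ± is an SD over libraries, and intervals cover 95%.

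The members and the gene lists were chosen with earlier results of these data known. Named genes are the members, genes of the channel list that passed, up to 4 genes of the partner list with the smallest p among those that passed, and the 3 genes most correlated with each member. Tmem38b and Kcnk12 and the scaled values were named after their values were seen. Libraries of the same culture deviated together from their group means at different times (r = 0.592 to 0.909 over 21 pairs of D and M cultures), so cultures pair the samples across times and a culture block was tried. Alternatives were pseudocounts of 0.1 and 1, no filter on low values, median-of-ratios scaling, the mean of all transcripts, all 7 DMSO cultures, each time alone, culture blocks, each culture left out and the 1 h library labelled M4 left out. The 21-library fit was tested on simulated data for MPH against DMSO at 0 h only, with libraries drawn independently. The simulation therefore does not cover the other contrasts or the likeness of libraries from the same culture.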

Additional observations from a re-analysis of the deposited data

Results flagged for a closer look

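Of 18 groups of DMSO values (6 genes at 3 times, 7 cultures each) 1 held a value far from the others. Kcnj2 at 2 h of LPS was at 10.2 RPKM in D3, against 1.01 to 4.62 RPKM in the other 6 DMSO cultures. Its gap to the nearest culture, as a share of the whole range, exceeded Dixon's 95% limit, which chance alone exceeds in about 1 of 20 groups. M2 was likewise the highest MPH culture at that time, at 5.84 RPKM. Without D3 the MPH minus DMSO log2 difference of Kcnj2 at 2 h was 0.00275, beside -0.38 with it.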

How the results depend on the processing

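Counts of members that passed moved in these settings. For MPH against DMSO at 0 h (1 member) the count was 2 against all 7 DMSO cultures, with the number in the culture name as a replicate block, without the 1 h library labelled M4 and without the 1 h libraries of D4, D6 and M4, an alternative chosen after seeing the data. It was 0 with culture as a random effect (consensus correlation 0.707), and 0 to 1 without 1 culture, being 0 without D4 or M3. Of all genes 89 of 10239 passed at 0 h in the main fit, and 25 with the random effect. The number block passed 891 of 10239 genes, and the comparison with all 7 DMSO cultures 256 of 10355. Without 1 h M4 165 of 10231 passed, and without 1 h D4, D6 and M4 155 of 10190. At 1 h (0) the member count was 1 without the 1 h M4 library, where 137 of 10231 genes passed. At 2 h (1) the member count was 0 with no filter, with that time alone and with the random effect. It was 2 against all 7 DMSO cultures, without 1 h M4 and without 1 h D4, D6 and M4, and 0 to 1 without 1 culture, being 0 without any of D3, D4, D5, D6, M2 or M3. Of all genes 89 of 10239 passed at 2 h in the main fit, 2 with the random effect, and 405 of 10355 against all 7 DMSO cultures. Without 1 h M4 215 of 10231 passed, and without 1 h D4, D6 and M4 186 of 10190. For LPS under DMSO the member count was 4 with a culture block at 1 h (2), where 5459 of 10212 genes passed. It was 1 with median-of-ratios scaling at 2 h (3), where 3841 of 10170 genes passed. For LPS under MPH at 1 h (1) it was 2 with scaling, all 7 DMSO cultures, a culture block, without 1 h M4 or without 1 h D4, D6 and M4, and 1 to 2 without 1 culture (2 without D3). Of all genes 315 of 10239 passed there in the main fit, 291 of 10211 with scaling and 613 of 9880 with a culture block. It was 425 of 10355 with all 7 DMSO cultures and 322 of 10231 without 1 h M4. Without 1 culture the member count was 3 to 4 at 2 h under MPH, where Kcnab2 no longer passed without M3 (adjusted p = 0.22) or without M4 (adjusted p = 0.0967).

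Values that turned sign were all small and none passed. With the number block, MPH minus DMSO was 0.10 for Kcnk6 at 0 h, and 0.16 and 0.10 for Kcnab2 at 1 and 2 h. Without 1 h M4 it was 0.000301 for Kcnj2 at 1 h, and the response differences at 1 h were -0.14 for Kcnn4 and 0.0122 for Kcna3. Without 1 h D4, D6 and M4, Kcnn4 stood at -0.0759 at 1 h and its response difference at -0.23. Scaling gave 0.0858 for Kcnk13 and 0.00128 for Kcnn4 at 2 h under DMSO, and -0.025 for the 1 h response difference of Kcnn4. With all 7 DMSO cultures the response differences of Kcnn4 were -0.0170 at 1 h and -0.00556 at 2 h, and that of Kcna3 at 2 h was 0.0541. Without 1 culture, MPH minus DMSO ranged from -0.15 to 0.00395 for Kcnk6 and -0.0285 to 0.17 for Kcnab2 at 0 h, from -0.23 to 0.0885 for Kcnj2 and -0.21 to 0.17 for Kcnab2 at 1 h, and from -0.78 to 0.00275 for Kcnj2, -0.00647 to 0.45 for Kcnn4 and -0.17 to 0.0510 for Kcnab2 at 2 h. The response differences ranged from -0.0505 to 0.82 for Kcnk13, -0.00970 to 0.0698 for Kcnn4 and -0.52 to 0.0576 for Kcna3 at 1 h, and from -0.12 to 0.25 for Kcnn4 at 2 h. The causes were not tested.

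Over the 6 genes and 9 comparisons 821 single-gene alternatives kept direction and call, 30 turned sign, 18 gained and 19 lost the call. D and M cultures with the same number share only a number, since their deviations from the group means correlated at -0.644 to -0.358 (6 pairs). The number block gave 2, 0 and 1 members at 0, 1 and 2 h, where 891, 161 and 803 of 10239 genes passed. Some cultures with different numbers did deviate together. At each time M2 was closest to D3, M3 to D4 and M4 to D5 (r = 0.739 to 0.904, 9 pairs), and 0 of the 9 MPH libraries were closest to their own number. No label pairs these cultures and no fit pairs them in this way, so the p-values of MPH against DMSO take them as unpaired. Depth limits Kcnj2 with MPH at 0 h and Kcna3 at 0 h, where as few as 23 and 19 reads stood behind a value.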
